A study of Mus musculus with 18 samples.

Results

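Chemokines and their receptors were followed as 1 gene family through sorted cells of the mouse embryonic aorta. The members are the genes whose symbol in the count files is Ccl, Ccr, Cxcl or Cxcr with a number, plus Cx3cl1, Xcl1 and Xcr1, with Cxcr4, Cxcl12, Cxcr7 and Cx3cr1 left out. That made 53 of the 21881 genes listed, 37 ligands and 16 receptors.

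The study dissected the aorta-gonad-mesonephros region (AGM) of embryonic day 11 embryos, where the first haematopoietic stem cells form, and sequenced RNA from 18 sorted fractions. All embryos were C57BL6 carrying the BRE-GFP transgene, in which a BMP-responsive element drives GFP, so every group, controls included, has the reporter. Cells were sorted as HPSC (CD31+ c-Kit+, enriched for haematopoietic progenitor and stem cells), MC (CD31- c-Kit-, enriched for mesenchymal cells) or EC (CD31+ c-Kit-, enriched for endothelial cells), each split into BRE-GFP+ and BRE-GFP-. The AGM came from explant culture with cyclopamine, which blocks Smoothened in the Hedgehog pathway, from explant culture without it, or fresh from dissection, and the design text says that the culture held BMP and Hedgehog. Each of the 18 combinations of population, culture and GFP fraction had 1 library, so populations were compared over 6 matched libraries each, cultures over 6 and GFP fractions over 9. The sources used here do not give the number of embryos in a library, the length of the culture or the dose of cyclopamine, and nothing says that libraries came from separate litters.

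Chemokines are small secreted proteins that bind G-protein-coupled receptors and steer the movement of leukocytes along a gradient. They are grouped by the spacing of their first cysteines into CC, CXC, C and CX3C ligands, and most receptors bind several ligands of 1 group. In the embryo, macrophages and other myeloid cells use them to enter tissues, and endothelial and mesenchymal cells are also known to make some of the ligands.

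The libraries held 3041249 to 21972063 counts assigned to genes. In each population 1 library stood apart by its few detected genes: HPSC cyclopamine BRE-GFP- with 10297, EC cyclopamine BRE-GFP- with 11006 and MC fresh BRE-GFP+ with 12028, where the highest library had 18816. Values without these 3 libraries, which were left out together, are given where they end or add a call between populations, and for the medians and signs over cultures and GFP fractions. The sort markers followed the labels: Pecam1, which encodes CD31, was at 212 to 2681 CPM (counts scaled to a common library size with TMM factors) in HPSC libraries, 2.99 to 11.5 CPM in MC libraries and 93.6 to 1682 CPM in EC libraries, and Kit was at 450 to 1134, 20.9 to 187 and 42.6 to 220 CPM in HPSC, MC and EC libraries. The markers of each labelled population were present in it. The 6 endothelial markers summed to 329 to 5430 CPM in EC libraries, 99.7 to 4342 CPM in HPSC libraries and 53.1 to 192 CPM in MC libraries. The 6 progenitor markers summed to 646 to 1081 CPM in HPSC libraries, 39.5 to 94.4 CPM in MC libraries and 112 to 1271 CPM in EC libraries. For both lists the HPSC and EC ranges overlap. In the progenitor list Cd34 alone made up 1251 of the 1271 CPM in EC fresh BRE-GFP+. Myb was at 38.5 to 170 CPM in HPSC and 0 to 36.4 CPM in EC libraries. Hlf was at 13.5 to 71.6 and 0.130 to 5.04 CPM, so neither of them overlapped, while Cd34, Flt3, Gfi1 and Runx1 did. EC libraries also held mesenchymal and megakaryocyte markers, at 733 to 5640 and 669 to 3329 CPM summed. Both CD31+ populations held myeloid RNA: the 9 macrophage markers found in the files summed to 629 to 4532 CPM in HPSC libraries, 35.3 to 170 CPM in MC libraries and 915 to 6918 CPM in EC libraries, with 1 of the 9 at 0 in 1 EC library and none at 0 elsewhere. In these bulk fractions, fewer cells of a type and less RNA per cell cannot be told apart.

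Of the 53 members, 38 passed the filter on low counts, which asked in 3 or more libraries for the CPM that 10 counts have in a library of median size: 24 ligands and 14 receptors. Only 7 members had counts in every library. The other 15 were not tested. Ccl19, Ccl28 and the 3 Ccl21 copies (Ccl21a, Ccl21b and Ccl21c), ligands of Ccr7 and Ccr10, had no count in any library. Xcl1, Ccr10, Cxcr1, Ccl26, Cxcl11, Ccl17, Cxcl15, Ccl20, Ccl1 and Ccl8 had counts, but never more than 9, 2, 5, 5, 18, 19, 24, 36, 38 and 68 in a library, in that order. The 3 Ccl21 copies are nearly identical, as are the copies of Ccl27a, so reads that fit several copies may be missing from them. The number of members detected per library was 21 to 40 in HPSC, 15 to 42 in MC and 17 to 42 in EC libraries.

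**Figure D1:**
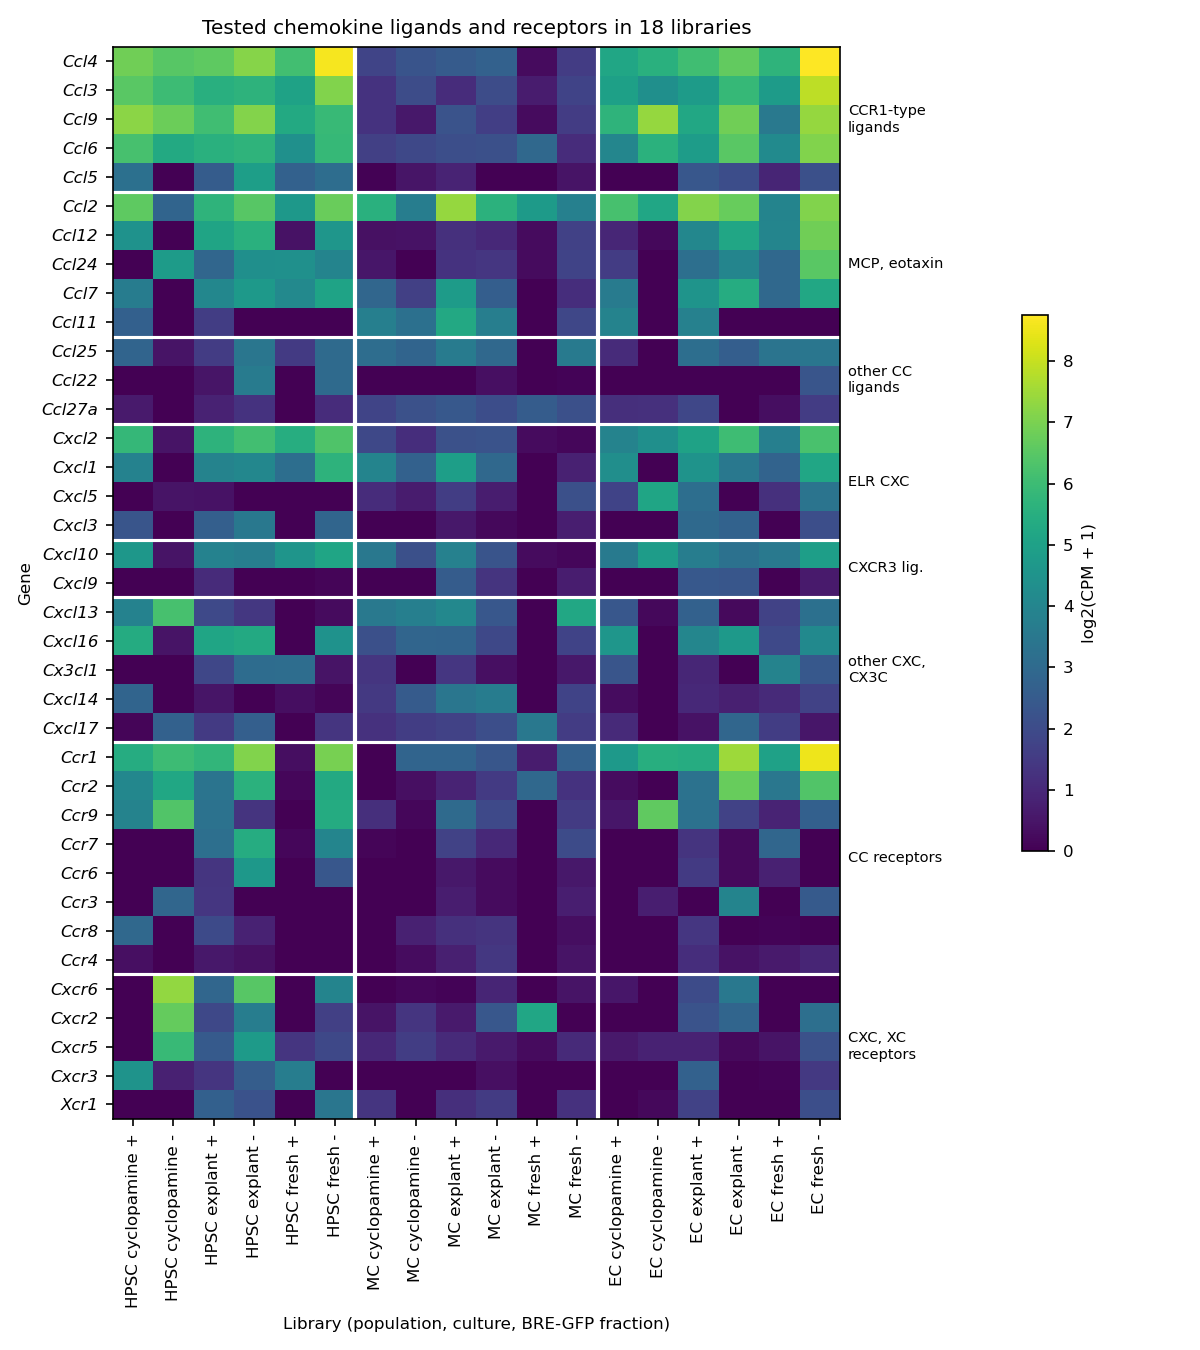
Level of 37 tested members, as log2(CPM + 1), in the 18 libraries. Rows are grouped by role and columns run through HPSC, MC and EC, each with cyclopamine explant, explant and fresh AGM and with BRE-GFP+ left of BRE-GFP-. Ccl3, Ccl4, Ccl6, Ccl9 and Ccl2 are filled in across the HPSC and EC columns, while of these Ccl2 alone stands out in the MC columns.

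The heatmap of member levels shows that few ligands made up most of the signal. Ligand counts summed to 308 to 1043 CPM in HPSC libraries (median 622), 50.3 to 351 CPM in MC libraries (median 114) and 212 to 1554 CPM in EC libraries (median 438). Scaled by transcript length, in CPM per kb, Ccl4 was the highest ligand in 6 of 6 HPSC and 4 of 6 EC libraries, whereas Ccl2 was the highest in 4 of 6 MC libraries. On that scale Ccl3, Ccl4, Ccl6 and Ccl9 together made up 52.5 to 73.8% of all ligand signal in HPSC, 4.17 to 19.0% in MC and 38.7 to 71.1% in EC libraries. Ccl2 made up 1.43 to 13.4% in HPSC, 15.5 to 52.3% in MC and 6.17 to 29.1% in EC libraries. Among receptors Ccr1 led per kb in 4 of 6 HPSC, 4 of 6 MC and 6 of 6 EC libraries.

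The populations were compared with edgeR's quasi-likelihood test in a fit over all 18 libraries, with culture and GFP fraction as blocks and Benjamini-Hochberg adjustment over 16231 genes, and a gene was called at an adjusted p under 0.05. HPSC against MC called 9 of the 38 tested members, 8 higher in HPSC and 1 lower, where 9.95% of all tested genes were called (4.1% higher and 5.85% lower). MC against EC called 6 of 38, all 6 lower in MC, where 2.54% of all genes were called (0.259% higher and 2.29% lower). HPSC against EC called none of the 38 in edgeR, where edgeR called 0.32% of all genes, and 2 members had an unadjusted p under 0.05. DESeq2 called 2 of the 38 and limma-voom 1, and both tools called more of all genes than edgeR did, as given further below. The median log2 fold change over the 38 members was 2.17 for HPSC over MC, against -0.38 over all genes, and -1.90 for MC over EC, against 0.20 over all genes. For HPSC over EC it was 0.40, against -0.17 over all genes. The 8 members called higher in HPSC than in MC were Ccl3, Ccl4, Ccl6, Ccl9, Cxcl2, Ccr1, Cxcr3 and Cxcr6, and the 6 called lower in MC than in EC were Ccl3, Ccl4, Ccl6, Ccl9, Cxcl2 and Ccr1. Both comparisons use the same MC libraries.

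A list of 5 CC ligands that includes those of Ccr1 separated the CD31+ populations from MC most clearly. Ccl4 and Ccl3 attract monocytes, macrophages and T cells, and their genes are neighbours on chromosome 11 (chr11:83662584-83664683, plus strand, and chr11:83647844-83649355, minus strand, GRCm38). Ccl4 had 67.5, 105 and 398 CPM as the lowest, median and highest value in the 6 HPSC libraries, 0.200, 3.17 and 5.57 CPM in the 6 MC libraries, and 35.1, 58.0 and 431 CPM in the 6 EC libraries. Every HPSC and every EC library lay above every MC library. In HPSC Ccl4 averaged 151 ± 123 CPM, against 3.12 ± 1.98 CPM in MC (SD, n = 6 each), a log2 fold change of 5.33 ± 0.59 (SE, edgeR adjusted p = 2.2e-05). The EC libraries averaged 121 ± 153 CPM, so that Ccl4 in MC was lower by a log2 fold change of -4.74 ± 0.58 (edgeR adjusted p = 9.6e-05). Its highest values in both CD31+ populations were those of the fresh BRE-GFP- fractions.

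Ccl3 ran close to Ccl4. It had a lowest, median and highest level of 31.8, 56.3 and 135 CPM in HPSC libraries, 0.599, 1.92 and 3.13 CPM in MC libraries and 19.4, 28.7 and 238 CPM in EC libraries, with MC again apart from both. HPSC exceeded MC by 5.08 ± 0.56 in log2 (69.2 ± 38.0 against 1.97 ± 1.05 CPM, edgeR adjusted p = 2.2e-05). Relative to EC (66.4 ± 84.9 CPM), Ccl3 was lower in MC by -4.63 ± 0.56 (edgeR adjusted p = 7.9e-05).

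Ccl9 and Ccl6 are CC chemokines that signal through Ccr1 in the mouse and lie side by side on chromosome 11 (chr11:83572919-83578636 and chr11:83587882-83593087, minus strand, GRCm38). Ccl9 had 38.5, 87.6 and 151 CPM as the lowest, median and highest value in HPSC libraries, 0.200, 1.71 and 3.75 CPM in MC libraries and 10.6, 83.4 and 166 CPM in EC libraries. No MC library reached an HPSC or EC library. The log2 fold change was 6.01 ± 0.68 for HPSC over MC (93.5 ± 45.8 against 1.66 ± 1.29 CPM, edgeR adjusted p = 2.8e-05) and -5.67 ± 0.68 for MC over EC, where EC averaged 91.0 ± 67.5 CPM (edgeR adjusted p = 7.9e-05). Ccl6 had 20.2, 48.5 and 73.8 CPM in HPSC, 1.17, 3.04 and 6.79 CPM in MC and 15.2, 37.6 and 137 CPM in EC libraries in the same order. Its log2 fold change was 3.82 ± 0.70 for HPSC over MC (47.9 ± 17.9 against 3.27 ± 1.91 CPM, edgeR adjusted p = 0.00232) and -3.81 ± 0.72 for MC over EC, where EC averaged 55.8 ± 48.6 CPM (edgeR adjusted p = 0.00521). With 1 library left out, the Ccl9 value of HPSC over MC ran from 5.71 to 6.65, the highest without MC explant BRE-GFP+. That of Ccl6 ran from 3.39 to 4.41, the highest without MC fresh BRE-GFP+. Both genes were called in all 18 of these fits.

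Ccl5, the fifth ligand of this list and a product of activated T cells and macrophages, had 0, 6.68 and 28.9 CPM in HPSC, 0, 0.207 and 0.834 CPM in MC and 0, 2.04 and 4.23 CPM in EC libraries as lowest, median and highest value. Its log2 fold change of 4.93 ± 2.01 for HPSC over MC was not called by edgeR (edgeR adjusted p = 0.134), while DESeq2 and limma-voom called it. Without the 3 libraries of few detected genes it was 5.99 ± 1.63 and called (edgeR adjusted p = 0.0340). So edgeR over all 18 libraries called 4 of the 5 ligands in the list in each comparison with MC. The list median was 5.08 for HPSC over MC and -4.63 for MC over EC. Between HPSC and EC it called 0 of 5, and the list median was 0.45. The macrophage marker sums given above separate the populations in the same way, and their part in these differences was not tested.

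**Figure D2:**
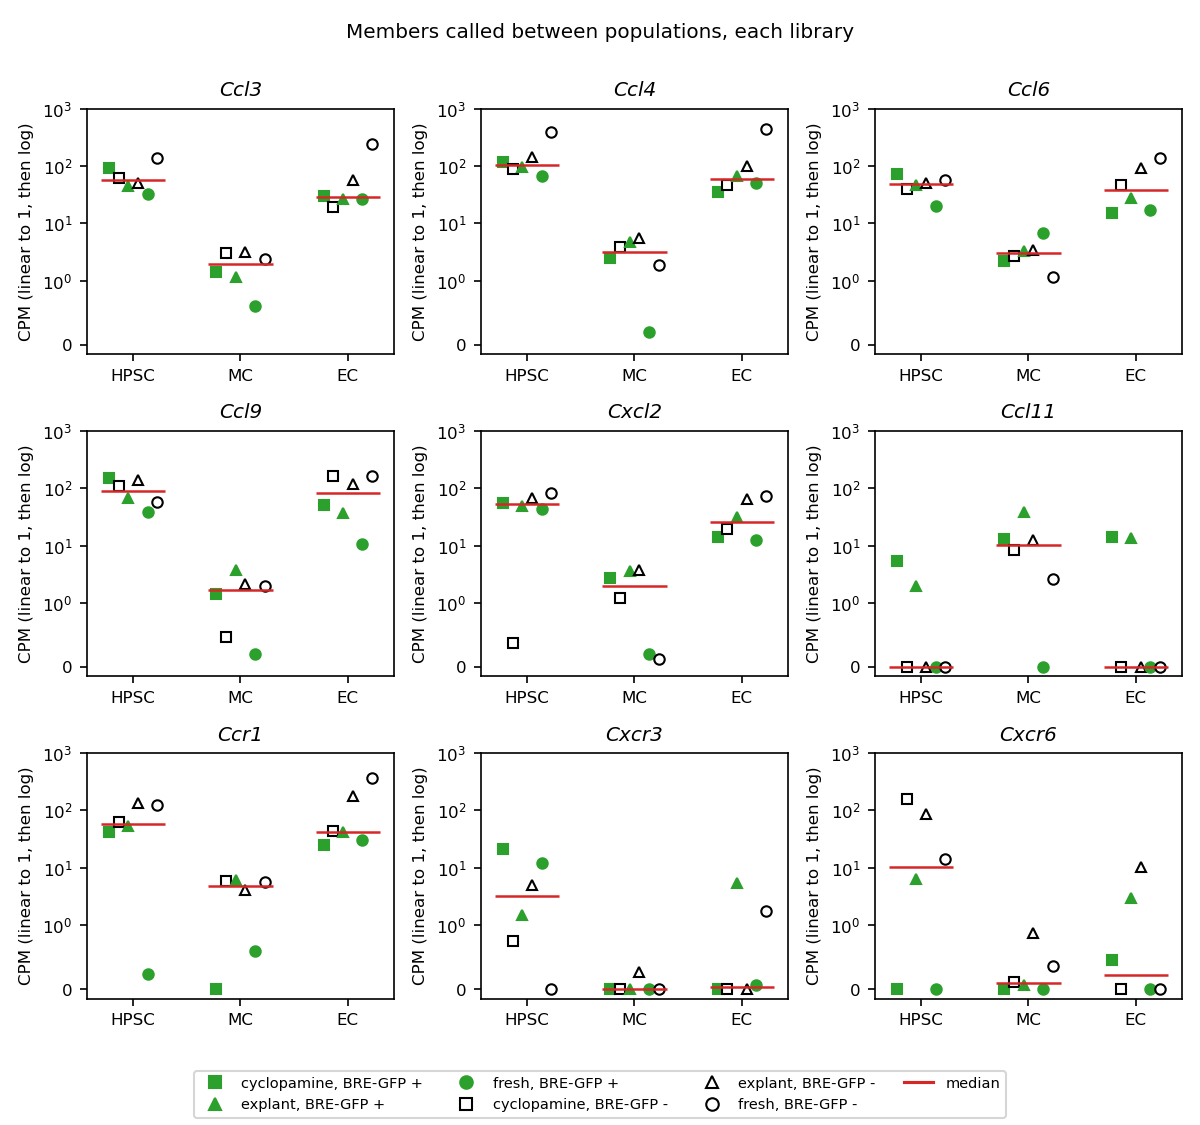
TMM-scaled CPM of the 9 members called in a comparison of populations, 1 panel each, with a linear axis up to 1 and a log axis above. Points are the 18 libraries in columns HPSC, MC and EC, green for BRE-GFP+ and open for BRE-GFP-, with the symbol giving the culture, and the red bar is the median of 6. For Ccl3, Ccl4, Ccl6 and Ccl9 all MC points lie below all HPSC and EC points, and for Ccl11 the MC median of 10.4 CPM lies above the HPSC and EC medians of 0.

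The monocyte-attracting ligands and eotaxins did not follow that pattern as a set. Ccl2, which draws monocytes through Ccr2 and is made by mesenchymal and endothelial as well as myeloid cells, had 6.03, 69.5 and 106 CPM as lowest, median and highest level in HPSC libraries, 11.9, 36.2 and 163 CPM in MC libraries and 14.5, 88.8 and 139 CPM in EC libraries. The 3 ranges overlapped over most of their width. Its log2 fold change was 0.31 ± 0.54 for HPSC over MC (edgeR adjusted p = 0.791) and -0.80 ± 0.54 for MC over EC (edgeR adjusted p = 0.663). The highest MC value was in the explant BRE-GFP+ library and the lowest HPSC value in the cyclopamine BRE-GFP- library, the one with the fewest counts of all.

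Ccl12 and Ccl24 are further attractants, for monocytes through Ccr2 and for eosinophils through Ccr3. Ccl12 had 0, 22.2 and 46.3 CPM in HPSC, 0.200, 0.685 and 2.22 CPM in MC and 0.130, 15.2 and 115 CPM in EC libraries, in the order lowest, median and highest. It was higher in 5 of 6 HPSC libraries than in their matched MC libraries, with a log2 fold change of 3.94 ± 1.39 that edgeR did not call (adjusted p = 0.0836). DESeq2 and limma-voom called it, as did the additive model (4.83 ± 1.32, edgeR adjusted p = 0.0241) and the fit without the 3 libraries of few detected genes (4.83 ± 1.16, edgeR adjusted p = 0.0193). In that last fit Ccl12 was also called lower in MC than in EC (-5.01 ± 1.22, edgeR adjusted p = 0.0430), where all 18 libraries gave -4.11 (edgeR adjusted p = 0.175). Ccl24 had 0, 17.2 and 27.1 CPM in HPSC, 0, 0.956 and 2.40 CPM in MC and 0, 7.46 and 90.8 CPM in EC libraries, and its log2 fold change of 4.10 ± 1.65 for HPSC over MC was not called either (edgeR adjusted p = 0.129). Ccl7, another Ccr2 ligand, ranged from 0 to 32.6 CPM in HPSC, 0 to 26.8 CPM in MC and 0 to 41.4 CPM in EC libraries.

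Ccl11, the eotaxin that attracts eosinophils through Ccr3 (chr11:82057823-82062955, plus strand, GRCm38), was the 1 member called lower in HPSC than in MC. It had 0, 0 and 5.37 CPM as lowest, median and highest level in HPSC, 0, 10.4 and 37.8 CPM in MC and 0, 0 and 14.1 CPM in EC libraries. HPSC averaged 1.23 ± 2.18 CPM and MC 12.3 ± 13.5 CPM, a log2 fold change of -6.76 ± 1.76 (edgeR adjusted p = 0.0254), lower in 5 of 6 matched pairs and 0 in both libraries of the sixth. MC over EC was 5.12 ± 1.66 and not called (edgeR adjusted p = 0.159). The HPSC-MC call depended on single libraries: without HPSC cyclopamine BRE-GFP-, EC cyclopamine BRE-GFP+, HPSC explant BRE-GFP+, HPSC fresh BRE-GFP-, HPSC explant BRE-GFP-, MC cyclopamine BRE-GFP-, MC fresh BRE-GFP- or MC explant BRE-GFP- the adjusted p was 0.0524, 0.0562, 0.0581, 0.0598, 0.0815, 0.0816, 0.0971 and 0.113, in that order. The log2 value ran from -7.97 without MC cyclopamine BRE-GFP+ to -5.40 without MC explant BRE-GFP-, and without the 3 libraries of few detected genes together it was -5.84 (edgeR adjusted p = 0.0507). Mesenchymal markers, at 198 to 650 CPM summed in HPSC, 1946 to 5757 CPM in MC and 733 to 5640 CPM in EC libraries, were also highest in MC, and their part was not tested.

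The neutrophil-attracting CXC ligands, which bind Cxcr2 and carry the ELR motif before their first cysteines, gave 1 call in each comparison with MC. Cxcl2 (chr5:90903871-90905938, plus strand, GRCm38) had 0.377, 52.6 and 81.1 CPM as lowest, median and highest level in HPSC, 0.123, 1.99 and 3.74 CPM in MC and 12.6, 25.8 and 74.5 CPM in EC libraries. The single low HPSC value belonged to the cyclopamine BRE-GFP- library. HPSC averaged 49.6 ± 27.6 CPM and MC 1.93 ± 1.63 CPM, a log2 fold change of 4.62 ± 0.99 (edgeR adjusted p = 0.00712), higher in 5 of 6 matched pairs. EC averaged 36.2 ± 26.9 CPM, and MC lay below EC in 6 of 6 pairs with a log2 fold change of -4.16 ± 0.95 (edgeR adjusted p = 0.0227). That second call was lost without MC fresh BRE-GFP+, EC fresh BRE-GFP-, EC explant BRE-GFP-, MC explant BRE-GFP- or EC cyclopamine BRE-GFP- (edgeR adjusted p = 0.0521, 0.0580, 0.0583, 0.0678 and 0.0791, in that order), though not without the 3 libraries of few detected genes together (edgeR adjusted p = 0.0185).

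Cxcl1 and Cxcl3, neighbours of Cxcl2 on chromosome 5, and Cxcl5 attract neutrophils through the same receptor. Cxcl1 had 0, 13.9 and 49.3 CPM as lowest, median and highest level in HPSC, 0, 6.22 and 29.0 CPM in MC and 0, 14.8 and 35.3 CPM in EC libraries, with overlapping ranges and log2 fold changes of 0.28 ± 1.51 for HPSC over MC and -0.08 ± 1.52 for MC over EC. Cxcl3 reached 10.4 CPM in HPSC, 0.678 CPM in MC and 6.99 CPM in EC libraries (HPSC over MC 4.90 ± 1.74, edgeR adjusted p = 0.0969, called by DESeq2 and limma-voom). Cxcl5 ran the other way in HPSC, with 0, 0 and 0.377 CPM in HPSC, 0, 0.893 and 3.39 CPM in MC and 0, 5.17 and 34.0 CPM in EC libraries. It was the member with the lowest p between HPSC and EC, with 0.118 ± 0.184 CPM in HPSC and 9.19 ± 12.7 CPM in EC and a log2 fold change of -6.19 ± 1.53 (edgeR adjusted p = 0.122). It was lower in 5 of 6 pairs, and DESeq2 and limma-voom called it. Its HPSC over MC value of -4.33 was not called (edgeR adjusted p = 0.0755), and without the 3 libraries of few detected genes it was -5.25 ± 1.54 and called (edgeR adjusted p = 0.0454).

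Promoter sequences are shown for these 3 neighbours because they share a motif near the start, while of the 3 edgeR called Cxcl2, and for Cxcl10, further away on the same chromosome, which holds the motif at 2 places. They are RefSeq sequences of GRCm38.p6, the 170 bases before the transcription start, 5′ to 3′ on the strand of the gene, with the kappa B motif, to which NF-kappa B proteins bind, in capitals where it matched on either strand.
Cxcl1 (chr5:90891075-90891244, plus strand): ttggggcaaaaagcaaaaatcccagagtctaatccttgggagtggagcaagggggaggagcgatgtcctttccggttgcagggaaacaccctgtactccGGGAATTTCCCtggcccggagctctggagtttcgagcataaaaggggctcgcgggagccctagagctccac
Cxcl2 (chr5:90903729-90903898, plus strand): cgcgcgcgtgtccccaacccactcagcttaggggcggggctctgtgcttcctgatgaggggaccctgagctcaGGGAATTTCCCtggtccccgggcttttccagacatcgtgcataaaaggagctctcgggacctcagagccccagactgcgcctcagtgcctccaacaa
Cxcl3 (chr5:90785931-90786100, plus strand): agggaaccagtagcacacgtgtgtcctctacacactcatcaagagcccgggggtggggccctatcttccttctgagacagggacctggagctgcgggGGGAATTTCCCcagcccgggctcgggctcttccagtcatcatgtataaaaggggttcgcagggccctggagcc
Cxcl10 (chr5:92348890-92349059, minus strand): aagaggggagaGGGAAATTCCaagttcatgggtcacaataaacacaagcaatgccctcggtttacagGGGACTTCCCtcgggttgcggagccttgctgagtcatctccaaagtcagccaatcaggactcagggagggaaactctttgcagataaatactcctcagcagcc

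In these sequences the capitals lay 71 to 61 bases before the start in Cxcl1, 97 to 87 in Cxcl2 and 73 to 63 in Cxcl3, with the same letters in all 3, where a match on each strand overlaps the other, and at 2 places in Cxcl10, 103 to 94 and 159 to 150 bases before it. Over the 250 bases before the start, it was found in 8 of 41 promoter entries of 37 matched members (19.5%) and in 1281 of 32851 entries of all genes (3.9%). The other 4 were Ccl9, Ccl20, Ccr3 and Ccr6. A match is a stretch of letters and was not set against binding data.

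Ligands of Cxcr3 draw T and natural killer cells and are induced by interferons. Cxcl10 had 0.377, 18.1 and 34.1 CPM as lowest, median and highest level in HPSC, 0.123, 3.63 and 13.4 CPM in MC and 8.71, 11.5 and 29.1 CPM in EC libraries, with log2 fold changes of 2.0 ± 1.16 for HPSC over MC (edgeR adjusted p = 0.308) and -1.95 ± 1.15 for MC over EC (edgeR adjusted p = 0.586). HPSC and EC lay mostly above MC, and the ranges overlapped. Cxcl9 stayed at or under 1.13 CPM in HPSC, 4.87 CPM in MC and 4.37 CPM in EC libraries. Exons of Cxcl10 overlap those of Art3 on the other strand, which ranged from 0 to 32.1 CPM, and the strand setting of the counting is not given in the sources used here.

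Among the remaining ligands, Cxcl16, a membrane-bound ligand of Cxcr6, had 0, 27.7 and 40.4 CPM as lowest, median and highest level in HPSC, 0, 3.08 and 6.18 CPM in MC and 0, 16.0 and 24.9 CPM in EC libraries (HPSC over MC 2.05 ± 1.501, edgeR adjusted p = 0.434). Cxcl13, which attracts B cells through Cxcr5, had 0, 2.24 and 73.5 CPM in HPSC, 0, 11.8 and 37.0 CPM in MC and 0.130, 3.23 and 8.31 CPM in EC libraries, and the 73.5 CPM came from HPSC cyclopamine BRE-GFP-. Neither gene was called in the fit over all 18 libraries. Without the 3 libraries of few detected genes Cxcl16 was called for HPSC over MC (2.97 ± 0.86, edgeR adjusted p = 0.0441). Cx3cl1 reached 7.65 CPM in HPSC, 1.60 CPM in MC and 14.1 CPM in EC libraries, Cxcl14 6.01, 11.8 and 2.30 CPM, and Cxcl17 5.65, 10.4 and 6.40 CPM in the same order.

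The homeostatic CC ligands were low throughout. Ccl25, which attracts thymocyte precursors through Ccr9, had 0.377, 3.97 and 9.77 CPM in HPSC, 0, 7.25 and 11.6 CPM in MC and 0, 6.51 and 9.84 CPM in EC libraries. Its exons overlap those of Elavl1 on the other strand, which was at 78.5 to 288 CPM. Ccl22, a Ccr4 ligand, reached 11.4 CPM in HPSC, 0.272 CPM in MC and 3.94 CPM in EC libraries. Ccl27a, a Ccr10 ligand, had 0, 0.674 and 1.43 CPM in HPSC, 2.44, 3.47 and 4.79 CPM in MC and 0, 1.29 and 2.62 CPM in EC libraries. Every HPSC library of Ccl27a lay below every MC library, but the log2 fold change of -2.86 ± 1.32 was not called by edgeR (edgeR adjusted p = 0.189). DESeq2 and limma-voom called it. Exons of Ccl27a also overlap those of Il11ra1 on the other strand, at 23.4 to 109 CPM. In all, 5 of the 38 tested members did not overlap between HPSC and MC and 7 between MC and EC, where 7.86% and 3.57% of all tested genes did not overlap and 9.95% and 2.54% were called.

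**Figure D3:**
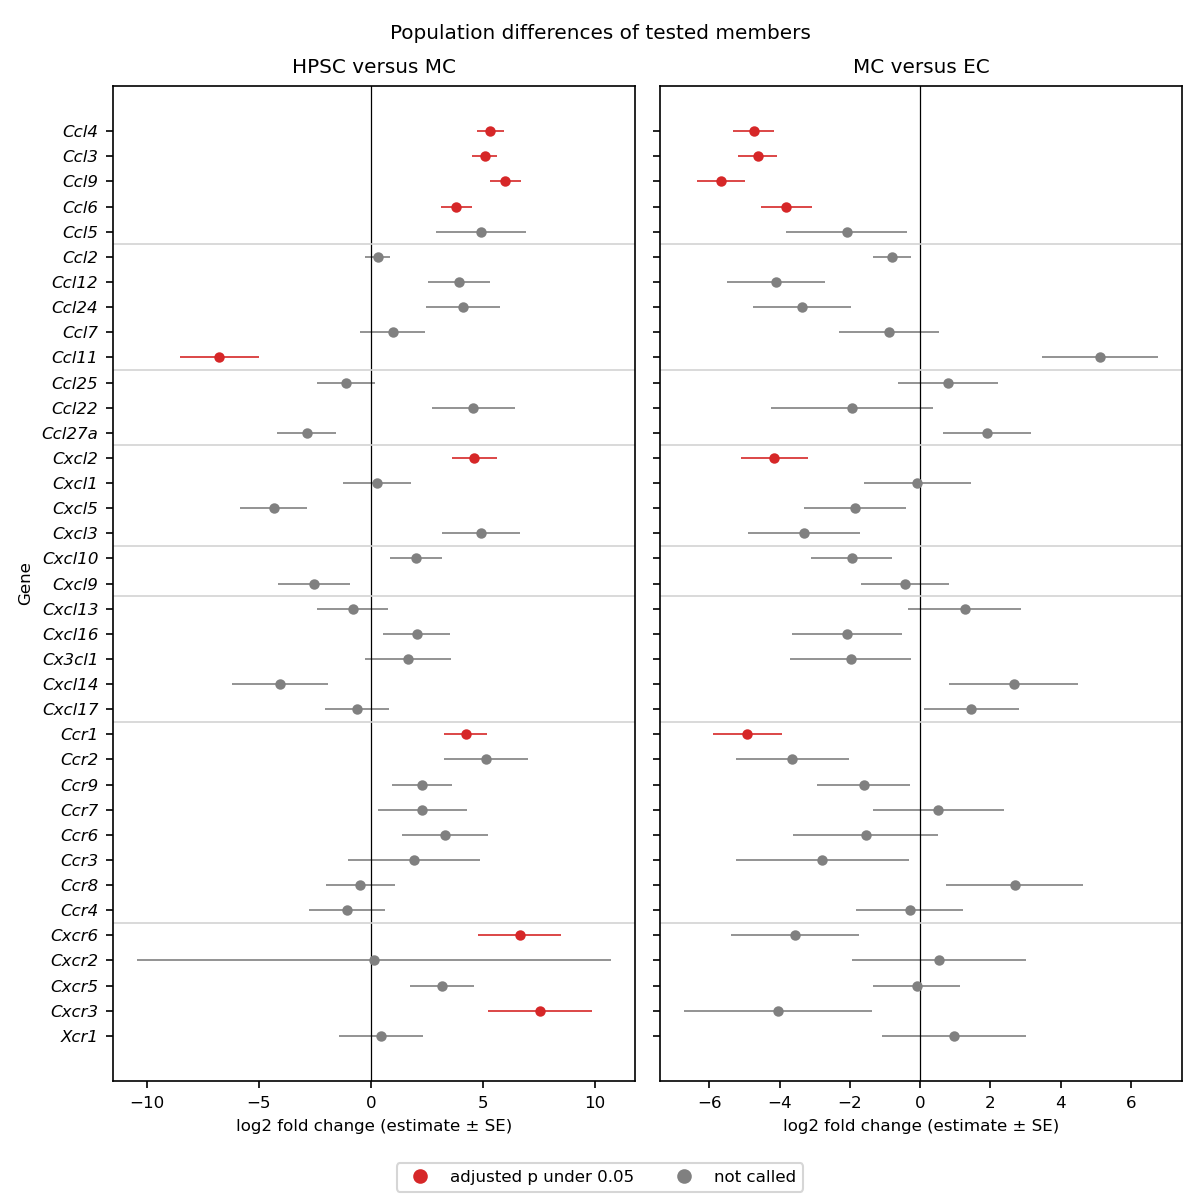
Log2 fold change ± SE of 37 tested members for HPSC over MC and for MC over EC, with members called at an adjusted p under 0.05 in red. The 8 members called higher in HPSC than in MC have values from 3.82 to 7.54, Ccl11 lies at -6.76, and the 6 called in MC over EC have values from -5.67 to -3.81.

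Receptor levels showed Ccr1, the receptor of Ccl3, Ccl6 and Ccl9 on myeloid cells, as the counterpart of the leading ligands. Ccr1 (chr9:123962124-123968692, minus strand, GRCm38) had 0.239, 58.6 and 137 CPM as lowest, median and highest level in HPSC, 0, 4.84 and 6.12 CPM in MC and 25.0, 43.0 and 371 CPM in EC libraries. All EC libraries and 5 of 6 HPSC libraries lay above all MC libraries, and the exception was HPSC fresh BRE-GFP+. HPSC averaged 69.8 ± 51.4 CPM and MC 3.73 ± 2.77 CPM, a log2 fold change of 4.23 ± 0.96 (edgeR adjusted p = 0.00981). Against EC (115 ± 138 CPM), Ccr1 in MC was lower by -4.92 ± 0.98 (edgeR adjusted p = 0.00836). Both calls remained with any 1 library left out.

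Ccr2, the receptor of Ccl2 on inflammatory monocytes, had 0.120, 25.7 and 47.2 CPM in HPSC, 0, 1.13 and 6.79 CPM in MC and 0, 9.40 and 104 CPM in EC libraries, with HPSC over MC at 5.13 ± 1.87 (edgeR adjusted p = 0.0934), and at 4.99 ± 1.40 and called without the 3 libraries of few detected genes (edgeR adjusted p = 0.0392). Ccr9, a receptor of thymocytes and their precursors, had 0, 11.4 and 81.8 CPM in HPSC, 0, 1.56 and 7.23 CPM in MC and 0.451, 3.89 and 96.8 CPM in EC libraries. Its 2 highest values, 96.8 and 81.8 CPM, were those of the EC and HPSC cyclopamine BRE-GFP- libraries, both of few detected genes. Exons of Ccr9 overlap those of Slc6a20a on the other strand, which was at 0 to 1.95 CPM and at 0 in both of these libraries. Lztfl1, also on the other strand, overlaps Ccr9 without overlap of exons and was at 11.5 to 50.7 CPM. It was at 50.7 CPM in this EC library and 26.8 CPM in this HPSC library, and its part in the Ccr9 values was not tested.

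Ccr7, Ccr6, Ccr3, Ccr8 and Ccr4 were at low levels in most libraries. Ccr7, which guides dendritic cells and lymphocytes to lymph nodes, reached 41.5 CPM in HPSC, 3.02 CPM in MC and 6.41 CPM in EC libraries. Ccr6 reached 24.6, 0.493 and 1.81 CPM, Ccr3 6.41, 0.678 and 14.6 CPM, and Ccr8 6.74, 1.5 and 1.61 CPM in the same order of populations. Ccr4 stayed at or under 1.70 CPM in every library. None of these was called between populations.

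Cxcr6 and Cxcr3, receptors of T, natural killer and related lymphoid cells, were called higher in HPSC than in MC. Cxcr6 (chr9:123806475-123811760, plus strand, GRCm38) had 0, 10.4 and 159 CPM as lowest, median and highest level in HPSC, 0, 0.093 and 0.884 CPM in MC and 0, 0.226 and 10.3 CPM in EC libraries. The 3 high HPSC libraries, 159, 87.5 and 14.3 CPM, were the BRE-GFP- ones, and 2 of the 3 BRE-GFP+ ones were at 0. The log2 fold change was 6.64 ± 1.84 (44.6 ± 65.4 against 0.240 ± 0.344 CPM, edgeR adjusted p = 0.0334), higher in 4 of 6 matched pairs and lower in none. Without MC cyclopamine BRE-GFP+, MC explant BRE-GFP+, MC cyclopamine BRE-GFP-, HPSC explant BRE-GFP-, MC explant BRE-GFP-, HPSC fresh BRE-GFP- or HPSC cyclopamine BRE-GFP- the adjusted p was 0.0706, 0.0712, 0.0822, 0.0844, 0.0850, 0.101 and 0.120, in that order, and without the 3 libraries of few detected genes it was 0.0450. The log2 value ran from 5.07 without HPSC cyclopamine BRE-GFP- to 7.93 without MC fresh BRE-GFP-. Cxcr6 lies within Fyco1 on the other strand without overlap of exons, and Fyco1 was at 27.4 to 57.8 CPM in MC libraries, where Cxcr6 did not exceed 0.884 CPM.

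Cxcr3 (chrX:101731535-101734269, minus strand, GRCm38) had 0, 3.27 and 21.4 CPM as lowest, median and highest level in HPSC, 0, 0 and 0.272 CPM in MC and 0, 0.0314 and 5.51 CPM in EC libraries. In MC the 4 counts of 1 library were all there was. The log2 fold change of HPSC over MC was 7.54 ± 2.32 (6.82 ± 8.44 against 0.0453 ± 0.111 CPM, edgeR adjusted p = 0.0485), higher in 5 of 6 pairs. The call held in 4 of 18 fits with 1 library left out, those without HPSC fresh BRE-GFP-, EC explant BRE-GFP-, EC explant BRE-GFP+ or HPSC explant BRE-GFP+ (edgeR adjusted p = 0.0288, 0.0398, 0.0424 and 0.0476, in that order), and without any 1 of the other 14 libraries it was 0.0505 to 0.134. The log2 value ran from 5.79 without HPSC cyclopamine BRE-GFP+ to 8.84 without HPSC explant BRE-GFP- in the fits that kept the 4 counts of MC explant BRE-GFP-. Without that library MC was at 0, and HPSC, with 425 counts, was at least 177-fold higher by a floor of 3 counts over the group (edgeR adjusted p = 0.0554). Without the 3 libraries of few detected genes the log2 value was 7.06 (edgeR adjusted p = 0.134). Lymphoid markers summed to 15.4 to 92.7 CPM in HPSC, 0.757 to 4.03 CPM in MC and 0 to 43.0 CPM in EC libraries, and their part in both differences was not tested.

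Cxcr2, the neutrophil receptor of the ELR ligands, had 0, 2.43 and 101 CPM as lowest, median and highest level in HPSC, 0, 1.06 and 34.9 CPM in MC and 0, 1.85 and 8.09 CPM in EC libraries. The 2 highest values, 101 and 34.9 CPM, came from the HPSC and MC libraries of few detected genes, so that no order of the populations can be read from it. Cxcr5, the Cxcl13 receptor of B cells, had 0, 3.66 and 59.2 CPM in HPSC, 0.200, 0.996 and 2.04 CPM in MC and 0.178, 0.653 and 3.50 CPM in EC libraries, the 59.2 CPM again in HPSC cyclopamine BRE-GFP-. HPSC over EC was 3.08 ± 1.45 for Cxcr5 with an unadjusted p of 0.0482, not called (edgeR adjusted p = 0.528). Xcr1, a receptor of cross-presenting dendritic cells, reached 9.88 CPM in HPSC, 1.90 CPM in MC and 3.28 CPM in EC libraries.

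Signalling genes downstream of the receptors differed between the same populations. In a list of 20 such genes, 11 were called higher in HPSC than in MC, where 4.1% of all tested genes were called higher. In MC against EC 8 of the 20 were called lower in MC, where 2.29% of all genes were called lower. No gene of the list was called the other way. Rac2, a haematopoietic GTPase of directed migration, averaged 872 ± 469 CPM in HPSC, 16.6 ± 12.1 CPM in MC and 361 ± 372 CPM in EC, with log2 fold changes of 5.94 for HPSC over MC and -4.35 for MC over EC (edgeR adjusted p = 5.7e-05 for MC over EC). Rgs18, a regulator of G-protein signalling in megakaryocytes and platelets, averaged 256 ± 145 CPM in HPSC, 1.2 ± 0.55 CPM in MC and 143 ± 113 CPM in EC (log2 fold change 7.64, edgeR adjusted p = 4.97e-07, and -6.77, edgeR adjusted p = 2.39e-06). Of 7 atypical and related receptors in the files, Ccrl1, which takes up ligands of Ccr7 and Ccr9 without signalling through G proteins, was called lower in HPSC than in MC (0.0598 ± 0.0936 against 2.58 ± 1.41 CPM, log2 fold change -6.00, edgeR adjusted p = 0.0174). Of all genes, 5.85% were called lower in HPSC than in MC. Both lists hold genes widely used in blood cells.

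No member was called between cultures in edgeR. Explant against fresh AGM called 0 of 38 members in edgeR, where 0.136% of all genes were called, with 3 members at an unadjusted p under 0.05 (DESeq2 called 1, limma-voom 0). Cyclopamine explant against explant called 0 of 38, where 0.0% of all genes were called, with 7 members at an unadjusted p under 0.05 (DESeq2 2, limma-voom 1). Cyclopamine explant against fresh called 0 of 38, where 0.129% were called, with 5 members at an unadjusted p under 0.05 (DESeq2 1, limma-voom 0). These 3 comparisons share libraries. All shares of genes called here and in the following comparisons are edgeR's. Those of DESeq2 and limma-voom, which called more genes than edgeR between populations, are not given, so their member calls have no background beside them. The log2 fold change of explant over fresh was above 0 for 31 of 38 members (median 0.97, against 0.18 over all genes), and that of cyclopamine explant over explant was below 0 for 35 of 38 (median -1.56, against -0.27 over all genes). For the 14 receptors the second median was -3.15, and for the 24 ligands it was -0.98. The number of members detected was 17 to 31 in cyclopamine, 30 to 42 in explant and 15 to 41 in fresh libraries, and 2 of the 3 libraries of few detected genes were cyclopamine ones. Without these 3 libraries, with 39 members tested, the median of explant over fresh was 0.69, with 29 of 39 above 0. That of cyclopamine explant over explant was -1.34, with 29 of 39 below 0. For the 14 receptors it was -2.77, with 13 below 0. For the 25 ligands it was -0.52, with 16 below 0, where all 18 libraries gave 22 of 24 ligands. How many of all genes lay above or below 0 is not given here.

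Ccr7 and Ccr6 had the lowest unadjusted p of cyclopamine against explant among the members. Ccr7 had 0, 0 and 0.0904 CPM as lowest, median and highest level in the 6 cyclopamine libraries and 0.178, 1.89 and 41.5 CPM in the 6 explant libraries, without overlap and lower in 6 of 6 pairs. The log2 fold change was -6.97 ± 1.75 (0.0151 ± 0.0369 against 9.08 ± 16.1 CPM, edgeR adjusted p = 0.358). Ccr6, the receptor of Ccl20, had no count in any of the 6 cyclopamine libraries, against 371 counts over the explant libraries with 0.178, 1.01 and 24.6 CPM as lowest, median and highest level, and was at least 118-fold lower when 3 counts over the group are taken as the floor (edgeR adjusted p = 0.358). Most of the explant counts of both genes, 522 of Ccr7 and 310 of Ccr6, lay in the HPSC BRE-GFP- library. The lowest explant value of each gene was 1 count, in EC BRE-GFP-. The highest cyclopamine value of Ccr7 was 2 counts, in the deeper MC BRE-GFP+ library, so its lack of overlap rests on these few reads. In fresh AGM Ccr7 reached 14.8 CPM and Ccr6 4.16 CPM.

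Cxcl9 and Ccl22 were likewise at 0 in all 6 cyclopamine libraries, against 197 and 153 counts over the explant libraries, and were at least 62.9-fold and 48.8-fold lower by the same floor (edgeR adjusted p = 0.358 and 0.488). Of the 153 explant counts of Ccl22, 143 lay in HPSC BRE-GFP-, and 3 of the 6 explant libraries were at 0. Without that library Ccl22 was at least 3.82-fold lower, and Ccr6 at least 23.3-fold lower. Cxcl9 was at least 49.8-fold lower without MC explant BRE-GFP+, which held 70 of its counts. Cxcr6 had 0.0695, 4.68 and 87.5 CPM as lowest, median and highest level in explant libraries and 0, 0 and 14.3 CPM in fresh libraries, higher in 6 of 6 pairs (log2 fold change 5.65 ± 1.58, edgeR adjusted p = 0.237). Ccl11 had 0, 7.15 and 37.8 CPM in explant libraries and 0, 0 and 2.65 CPM in fresh libraries, higher in 4 pairs and lower in none (5.67 ± 1.94, edgeR adjusted p = 0.359). Ccr8, a receptor of Ccl1, averaged 1.35 ± 0.952 CPM in explant and 0.0516 ± 0.0988 CPM in fresh libraries (4.80 ± 1.74, edgeR adjusted p = 0.381).

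Within single populations the culture comparisons called no member in edgeR either. Explant against fresh called 0 of 38 within HPSC and within MC, where 0.0% of genes were called in each, and 0 of 38 within EC, where 0.00616% were called, with 1, 3 and 1 members at an unadjusted p under 0.05 in that order (DESeq2 0 within HPSC, 1 within MC and 1 within EC, limma-voom 0 in each). Cyclopamine explant against explant called 0 of 38 within HPSC, MC and EC, where 0.0% of genes were called in each, with 3, 1 and 5 members at an unadjusted p under 0.05 (DESeq2 1 within HPSC, 0 within MC and 1 within EC, limma-voom 0 in each). In EC libraries Cxcr6 had 102 counts over the explant pair and none over the fresh pair, at least 41.5-fold higher. The test of whether culture effects differed between populations called 0 of 38 members, where 0.00616% of genes were called, and no member had an unadjusted p under 0.05 (limma-voom 0).

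Summed receptor RNA lay lower in the BRE-GFP+ than in the BRE-GFP- fraction of both CD31+ populations, a description that was not put to a test. Summed receptor levels were 14.2 to 145 CPM (median 74.6) in the 6 BRE-GFP+ libraries of HPSC and EC and 169 to 560 CPM (median 382) in the 6 BRE-GFP- ones. The 2 sets did not overlap, and the BRE-GFP+ library was lower in 6 of 6 pairs, at 0.0528 to 0.286 of its partner. In MC it was lower in 1 of 3 pairs, with ratios of 0.467 to 2.27. Summed ligand levels were lower in 5 of 6 pairs of HPSC and EC, with ratios of 0.137 to 1.81. Without the libraries of few detected genes the BRE-GFP- receptor sums were 269 to 429 CPM in HPSC and 335 to 560 CPM in EC. Beside this, the macrophage marker sum of HPSC and EC was 629 to 4532 CPM (median 1048) in BRE-GFP+ and 1316 to 6918 CPM (median 2662) in BRE-GFP- libraries, lower in 5 of 6 pairs, and the neutrophil marker sum was 0.638 to 343 CPM in BRE-GFP+ and 100 to 1784 CPM in BRE-GFP- libraries, lower in 6 of 6. The mast cell and eosinophil marker sum was 13.2 to 317 CPM in BRE-GFP+ and 541 to 1898 CPM in BRE-GFP- libraries, lower in 6 of 6 and without overlap. The endothelial marker sum ran the other way without overlap, at 995 to 5430 CPM in BRE-GFP+ and 99.7 to 989 CPM in BRE-GFP- libraries. The part of these cell type markers in the receptor sums was not tested.

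**Figure D4:**
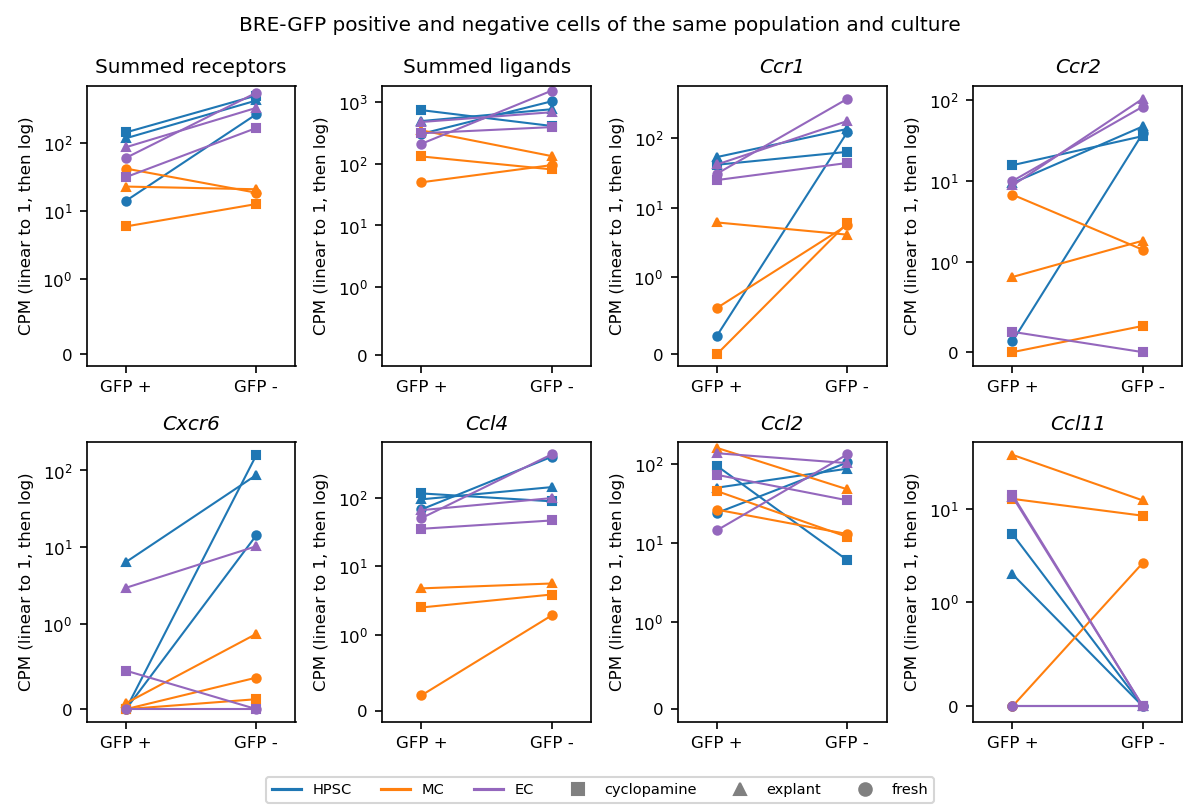
Summed receptor and ligand levels and the levels of Ccr1, Ccr2, Cxcr6, Ccl4, Ccl2 and Ccl11 in TMM-scaled CPM, with BRE-GFP+ left of BRE-GFP- and a line for each of the 9 pairs of population and culture. The axis is linear up to 1 and logarithmic above. The receptor sum of BRE-GFP+ lies below its partner in the 6 pairs of HPSC and EC, and Ccl11 is at 0 in the BRE-GFP- libraries of HPSC and EC.

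Over all 9 pairs no single member was called for BRE-GFP+ against BRE-GFP-: 0 of 38 in edgeR, where 0.0554% of all genes were called and 0.0493% were called lower, with 5 members at an unadjusted p under 0.05 (DESeq2 1, limma-voom 0). The log2 fold change was below 0 for 12 of 14 receptors (median -1.48) and for 16 of 24 ligands (median -0.48), where the median over all genes was 0.11. Without the 3 libraries of few detected genes these medians were -0.71 and -0.60, with 10 of 14 receptors and 17 of 25 ligands below 0. Ccr1 had 0, 25.0 and 53.6 CPM as lowest, median and highest level in the 9 BRE-GFP+ libraries and 4.08, 63.7 and 371 CPM in the 9 BRE-GFP- libraries, lower in 8 of 9 pairs (22.2 ± 21.0 against 103 ± 119 CPM, SD, n = 9 each). Its log2 fold change was -2.46 ± 0.87 (edgeR adjusted p = 0.751), and DESeq2 called it. Ccl4 (48.5 ± 41.6 against 135 ± 166 CPM, -1.07 ± 0.41, edgeR adjusted p = 0.812) was lower in 8 of 9 pairs, and Ccl3 (28.3 ± 28.4 against 63.4 ± 78.0 CPM, -1.06 ± 0.46, edgeR adjusted p = 0.910) and Cxcr6 (1.10 ± 2.21 against 30.3 ± 56.0 CPM, -3.87 ± 1.49, edgeR adjusted p = 0.823) in 7 of 9. Ccl22, the fifth of these members, averaged 0.0445 ± 0.133 CPM in BRE-GFP+ and 2.52 ± 4.14 CPM in BRE-GFP- libraries. Of the pathway genes outside the family, Rac2 was called, at 218 ± 240 CPM in BRE-GFP+ and 615 ± 596 CPM in BRE-GFP- libraries (-1.70 ± 0.28, edgeR adjusted p = 0.0432), lower in 9 of 9 pairs.

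Within HPSC, 0 of 38 members were called between GFP fractions in edgeR, where 0.037% of genes were called, with 2 members, Cxcr6 and Ccl11, at an unadjusted p under 0.05. Cxcr6 was at 2.14 ± 3.70 CPM in BRE-GFP+ and 87.1 ± 72.6 CPM in BRE-GFP- libraries (SD, n = 3 each), lower in 3 of 3 pairs (edgeR adjusted p = 0.385), and DESeq2 and limma-voom each called it and no other member. Within EC, 0 of 38 were called, where 0.0123% of genes were called, with 4 members, Ccl6, Ccl9, Ccl11 and Ccr3, at an unadjusted p under 0.05 (DESeq2 1, limma-voom 0). Ccl9 averaged 32.8 ± 20.5 CPM in BRE-GFP+ and 149 ± 28.7 CPM in BRE-GFP- EC libraries, and Ccl6 20.04 ± 6.75 and 91.7 ± 44.9 CPM (SD, n = 3 each, edgeR adjusted p = 1.0 for both). Within MC, 0 of 38 were called, where 0.0% of genes were called, and none had an unadjusted p under 0.05 (DESeq2 0, limma-voom 0). The test of a difference between populations in the GFP effect called 0 of 38 in edgeR, where 0.0% of genes were called, with 1 member, Ccl11, at an unadjusted p of 0.0430 (limma-voom 0).

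Ccl11 went against most members between GFP fractions, with higher values in BRE-GFP+. It had 14.1, 13.5 and 0 CPM in cyclopamine, explant and fresh BRE-GFP+ EC libraries and 5.37, 2.0 and 0 CPM in the BRE-GFP+ HPSC libraries, while all 6 BRE-GFP- libraries of EC and HPSC were at 0. By the floor of 3 counts over the group, BRE-GFP+ was at least 66.1-fold higher in EC (389 counts against none). In HPSC it was at least 22.1-fold higher (89 counts against none). Over all 3 populations Ccl11 was not called (edgeR adjusted p = 0.9999). The mesenchymal marker sum was also higher in BRE-GFP+ in 5 of 6 pairs of EC and HPSC, all but fresh HPSC. It was 5640 against 3568 CPM in cyclopamine EC and 3834.5 against 3552 CPM in explant EC libraries. In HPSC it was 650 against 400 and 497 against 198 CPM in the same order. The markers in the sum did not all run this way. In explant EC Pdgfra, Pdgfrb, Col1a1 and Col1a2 were lower in BRE-GFP+ (106 against 414, 94.5 against 390, 335 against 409 and 619 against 856 CPM). Dcn and Lum were higher there (1438 against 748 and 1242 against 736 CPM). Pdgfra and Pdgfrb were also lower in cyclopamine EC and explant HPSC, where the others were higher. The part of these markers in the Ccl11 difference was not tested. In MC the gene was present in both fractions, at 12.8, 37.8 and 0 CPM in BRE-GFP+ and 8.45, 12.3 and 2.65 CPM in BRE-GFP- libraries of cyclopamine explant, explant and fresh AGM. Ccl2, which lies on the same chromosome (chr11:82035571-82037453, plus strand), was present in both fractions of all 3 populations.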

How the data were processed

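RNA of the 18 sorted fractions was made into libraries with a SMARTER protocol and sequenced on Illumina machines, per the labels' protocols. For each library the authors deposited a table of unnormalized read counts by gene symbol. TopHat, Cufflinks and HTSeq are named, with the build mm10, per the submitters' processing notes. The sources used here give no versions, annotation or strand setting. HTSeq's no-feature and ambiguous classes, at 19.51 to 49.41% and 0.479 to 0.935% of the reads, were kept out of library sizes.

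The counts went into edgeR 4.0.16 under R 4.3.3 (TMM scaling, quasi-likelihood F test, SE as the log2 fold change over the root of F) after keeping 16231 genes with at least 0.796 CPM in 3 libraries. Population, culture and GFP fraction were each tested over all 18 libraries with the other 2 as blocks, leaving 10, 10 and 8 residual degrees of freedom, and 6 in fits within populations or of their differences. With 1 library per combination, p-values measure the spread between matched libraries, which may be technical. DESeq2 1.42.0, limma-voom (limma 3.58.1), DESeq2 size factors, no filter, an additive model and leaving out each library were alternatives. The code was tested on simulated counts.

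The members and all lists were chosen with earlier results of these data known. Named with values in every group are the members called in a comparison over all populations and up to 3 members of each role with the highest CPM in any library, and the others are given by ranges. Gene positions are from GENCODE M21 (GRCm38). Of the tested members, 1 is not reported here by name and is left out of the figures, though the counts, medians and sums over the members include it.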

Additional observations from a re-analysis of the deposited data

Results flagged for a closer look

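Among the 27 groups of 6 libraries behind the members called between populations, 3 held a library far from the other 5, judged by its gap to the nearest library over the range of the group on log2(CPM + 1) and set against Dixon's 95% critical value for 6 samples. Chance flags about 1 in 20 groups. Ccr1 was at 0.239 CPM in HPSC fresh BRE-GFP+, where the next HPSC library had 41.5 CPM (gap over range 0.751). Cxcl2 was at 0.377 CPM in HPSC cyclopamine BRE-GFP-, where the next had 43.2 CPM (0.848). Cxcr3 was at 0.272 CPM in MC explant BRE-GFP-, where the other 5 MC libraries were at 0 (1.0). With the other 5 at 0, any count gives this ratio, so it says no more than that 1 library held the 4 counts.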

How the results depend on the processing

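With DESeq2 the number of members called was 2 for HPSC against EC (Cxcl5 and Cxcr5), 11 for MC against EC, 19 for HPSC against MC, 1 for explant against fresh (Cxcr6), 2 for cyclopamine explant against explant (Ccr6 and Ccr7), 1 for cyclopamine explant against fresh (Ccr7) and 1 for BRE-GFP+ against BRE-GFP- (Ccr1). Within populations it called 1 member each for explant against fresh in EC (Cxcr6) and MC (Cxcl10), cyclopamine explant against explant in HPSC (Ccr7) and EC (Ccr2), and BRE-GFP+ against BRE-GFP- in HPSC (Cxcr6) and EC (Ccl9). With limma-voom it was 1 for HPSC against EC (Cxcl5), 7 for MC against EC, 14 for HPSC against MC, 1 for cyclopamine explant against explant (Ccr6) and 1 for the GFP fractions within HPSC (Cxcr6). All members called by edgeR were among those called by both tools. For HPSC against MC both tools also called Ccl5, Ccl12, Ccl27a and Cxcl3. DESeq2 but not limma-voom called Ccl24, Ccr2, Cxcl5, Cxcl14 and Cxcr5 there, and Ccl11, Ccl12, Ccl24 and Ccr2 for MC against EC. Counts over all genes moved too: DESeq2 called 795, 1246 and 3579 genes and limma-voom 228, 781 and 2872 for HPSC against EC, MC against EC and HPSC against MC, where edgeR called 52, 413 and 1615. The cause was not tested.

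DESeq2 size factors and no filter on low counts left the called members the same, and the additive model called 6 and 11 for MC against EC and HPSC against MC. Without the 3 libraries of few detected genes, an alternative chosen after seeing the data, 7 members were called for MC against EC and 12 for HPSC against MC, with Ccl11 and Cxcr3 lost from HPSC against MC and Ccl5, Ccl12, Ccr2, Cxcl5 and Cxcl16 gained, and Ccl12 gained in MC against EC. The share of all genes called without these 3 libraries is not given here. Leaving out 1 library at a time gave 5 to 7 and 6 to 10 called members for MC against EC and HPSC against MC. It gave 0 to 1 for cyclopamine explant against explant within HPSC, where Cxcl2 was called without HPSC cyclopamine BRE-GFP+, and 0 in every other comparison. No value reversed its direction. The tests of differences between populations were not run with DESeq2. No paired analysis by replicate number was possible because the labels carry none; the blocks of the main model pair libraries of matched conditions. Depth sets the floor of members with few counts: Cxcr3 had 4 counts over the MC libraries.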

Other observations

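The HPSC cyclopamine BRE-GFP- library held the highest HPSC level of Cxcr6 (159 CPM), Cxcr2 (101 CPM), Ccr9 (81.8 CPM), Cxcl13 (73.5 CPM), Cxcr5 (59.2 CPM) and Ccl24 (27.1 CPM), while 31 of the 53 members were at 0 in it. Per kb, the highest receptor was Cxcr6 in that library, Cxcr3 in HPSC fresh BRE-GFP+, Cxcr2 in MC fresh BRE-GFP+ and Xcr1 in MC cyclopamine BRE-GFP+, and Ccr1 in the other 14. Summed ligand over summed receptor signal per kb was 2.17 to 35.1 in HPSC, 3.50 to 88.0 in MC and 6.46 to 25.3 in EC libraries. Of the 52 members with a position in the annotation, 14 lie on chromosome 11, 11 on chromosome 5 and 10 on chromosome 9.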
